A study of Saccharomyces cerevisiae with 6 samples.

Results

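A set of 10 genes of the reductive iron uptake system of budding yeast were followed in cells deleted for RPH1 and in wild-type cells. The set was chosen by gene symbol, with earlier results of these data known. It holds the iron oxidase genes FET3 and FET5, the iron permease genes FTR1 and FTH1, and the ferric reductase genes FRE1, FRE2, FRE3, FRE4, FRE5 and FRE6. All 10 had 1 probe set each on the array, out of 5449 Saccharomyces cerevisiae genes measured. Transcript levels were read on 6 Affymetrix arrays, 3 of the rph1 deletion (rph1) and 3 of wild type (WT), numbered 1 to 3 in each group. Both groups were of the W303 laboratory strain background, grew in rich medium (YPD) at 30 °C, and were harvested in log phase. Per the series' design text these are biological samples, and no source used here says whether cultures of the same number were grown together or how many independent deletion strains were made. RPH1 encodes a histone demethylase of the JmjC class that also carries zinc fingers, and the comparison addresses which genes it regulates in unstressed growth.

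In the reductive route, reductases at the cell surface turn ferric iron into ferrous iron. A multicopper oxidase and a permease that work as one complex then carry it across the plasma membrane. The oxidase depends on copper, which the pump Ccc2 loads into it inside the cell. A related complex and a related reductase sit in the membrane of the vacuole, where they bring stored iron back to the cytosol. When iron is scarce the activator Aft1 switches on most of these genes together with the siderophore transporters, and FRE1 also answers to the copper-sensing activator Mac1.

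The RPH1 probe set checked the labels, at 4.52, 8.18 and 8.99 signal units on rph1 arrays 1, 2 and 3 against 305, 362 and 385 on the WT arrays. This was at least 35.2-fold lower. Background was set at the 95th percentile of the probe sets for fission yeast, which share the array. The 5402 genes with a mean above it, a signal of 8.32, entered the test. Median signals over these genes were 623 to 628 on rph1 arrays and 599 to 627 on WT arrays. The replicate 1 arrays stood apart from the rest. Their sample codes take another form in the labels, and a spiked control RNA, dap, read 2.02 on rph1 array 1 and 0.0959 on WT array 1, against 42.7 to 55.0 on the other 4 arrays. Each genotype has 1 array in this batch and 2 outside it, so values are given by replicate number wherever the batch touches them.

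FET3, the oxidase of the plasma membrane complex, showed the largest genotype difference of the set. Its signal was 819, 892 and 834 on rph1 arrays 1, 2 and 3, against 1095, 1364 and 1318 on the WT arrays of the same numbers. Every rph1 array lay below every WT array, and the rph1 arrays lay closer together than the WT arrays. The means were 849 ± 39 in rph1 and 1259 ± 144 in WT (SD, n = 3 each). The rph1 level was 0.677 times the WT level (95% interval 0.568 to 0.806), or -0.56 on the log2 scale (SE 0.10). It did not pass the test over all genes (limma adjusted p = 0.297, threshold 0.05). FET3 had the 20th lowest log2 difference of the 5402 genes and the 24th smallest p. The log2 difference was -0.42 in the replicate 1 arrays, -0.61 in replicate 2 and -0.66 in replicate 3. A fit with a term for the batch called FET3 (limma adjusted p = 0.0400), and a fit with the replicate number as a block did not (limma adjusted p = 0.104). The batch fit called 0.0926% of tested genes lower, and the block fit called 0.111% in either direction.

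FTR1 encodes the permease that works with Fet3. It read 923, 1123 and 1232 on rph1 arrays 1, 2 and 3 and 1143, 1311 and 1275 on the WT arrays. The groups overlapped, since rph1 array 3 exceeded WT array 1, but within each replicate number the rph1 array was the lower one. The log2 difference was -0.19 (SE 0.13, 95% interval -0.50 to 0.11, limma adjusted p = 1.00). By replicate number it was -0.31, -0.22 and -0.05. FTR1 therefore had its smallest difference in replicate 3, where FET3 had its largest.

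The log2 ratio of FET3 to FTR1 signal within each array measured how far the partners moved apart. This ratio was -0.17, -0.33 and -0.56 on rph1 arrays 1, 2 and 3, against -0.06, 0.06 and 0.05 on WT arrays. All rph1 arrays had the lower ratio, with a difference of -0.37 (SE 0.12) between the genotypes. The exact permutation test (2-sided) gave p = 0.1, the smallest that this test can give with 3 arrays against 3.

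Both genes of the vacuolar complex had differences near 0. FET5, the vacuolar oxidase paralogous to Fet3, read 675, 660 and 634 on rph1 arrays and 681, 644 and 610 on WT arrays. The ranges overlapped almost fully. Its log2 difference was 0.03 (SE 0.08, 95% interval -0.16 to 0.21, limma adjusted p = 1.00), which turned to -0.01 after quantile normalization or median centring. FTH1, the permease that partners Fet5, read 694, 724 and 746 on rph1 arrays and 770, 762 and 726 on WT arrays. These overlapped as well, and the log2 difference was -0.06 (SE 0.07, 95% interval -0.23 to 0.11, limma adjusted p = 1.00). The log2 ratio of FET5 to FTH1 differed by 0.09 (SE 0.06) between rph1 and WT, and the arrays overlapped (exact permutation p = 0.2).

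The plasma membrane oxidase was also set against the vacuolar one. The log2 ratio of FET3 to FET5 was 0.28, 0.44 and 0.40 on rph1 arrays and 0.69, 1.08 and 1.11 on WT arrays. The groups did not overlap, and the difference in the ratio was -0.59 (SE 0.15, exact permutation p = 0.1, the smallest possible). With the replicate number as a block, the exact test gave p = 0.25 for each of these 3 ratios. With the batch arrays left out, the exact test gave p = 0.333 for each. The exact test cannot reach 0.05 here in any of these forms, with or without Benjamini-Hochberg adjustment.

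**Figure D1:**
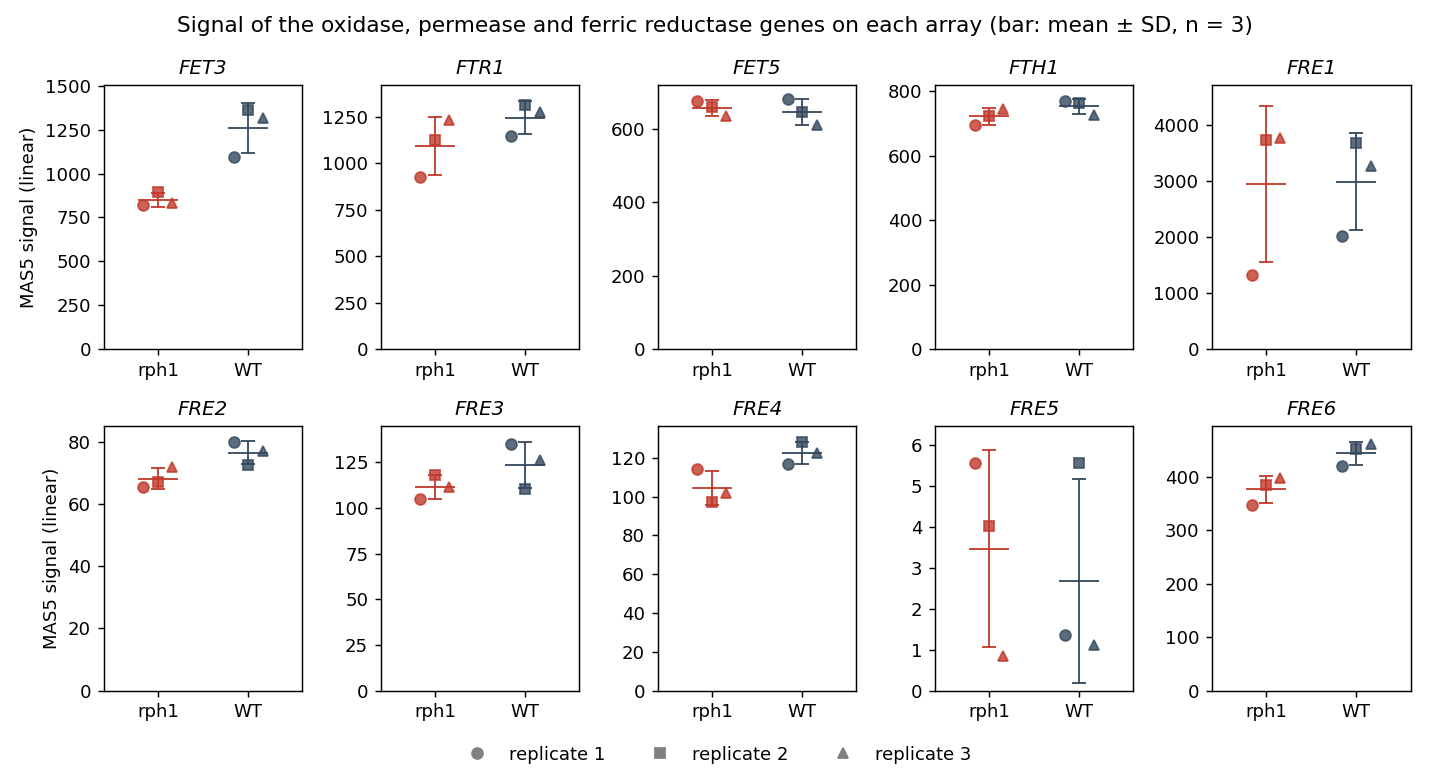
MAS5 signal on a linear scale for the 10 genes on each array, with rph1 to the left of WT. Symbols mark the replicate number, and bars give the mean and SD of 3 arrays. FET3, FRE2, FRE4 and FRE6 have every rph1 array below every WT array. FRE1 is low on both replicate 1 arrays, and FRE5 lies under 6 signal units throughout.

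Of the ferric reductases, FRE6 had the lowest unadjusted p. It encodes the reductase of the vacuolar membrane that serves the Fet5 and Fth1 complex. Its signal was 348, 385 and 397 on rph1 arrays 1, 2 and 3, against 420, 452 and 461 on WT arrays. The groups did not overlap, and replicate 1 was the lowest array of each genotype. The log2 difference was -0.24 (SE 0.08, 95% interval -0.44 to -0.04), and it was close to the same in each replicate number, at -0.27, -0.23 and -0.21. It did not pass over all genes (limma adjusted p = 0.729), nor with the batch term (limma adjusted p = 0.0978) or the replicate block (limma adjusted p = 0.184).

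FRE2 encodes, with FRE1, the main reductase activity of the cell surface. FRE2 read 65.4, 67.0 and 71.8 on rph1 arrays and 79.9, 72.6 and 76.9 on WT arrays. The groups did not overlap, but the highest rph1 array and the lowest WT array were less than 1 signal unit apart. The log2 difference was -0.17 (SE 0.08, 95% interval -0.36 to 0.02, limma adjusted p = 0.985).

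FRE3 and FRE4 encode reductases that act on iron bound to siderophores, the iron chelators made by other microbes. FRE4 read 114, 97.4 and 102 on rph1 arrays and 117, 128 and 123 on WT arrays. The groups did not overlap, yet the replicate 1 arrays differed by only -0.03 on the log2 scale, against -0.40 in replicate 2 and -0.27 in replicate 3. Its overall log2 difference was -0.23 (SE 0.09, 95% interval -0.44 to -0.02, limma adjusted p = 0.843). FRE3 read 105, 118 and 111 on rph1 arrays and 135, 110 and 126 on WT arrays. These overlapped, with the WT array below the rph1 array in replicate 2. The log2 difference of FRE3 was -0.15 (SE 0.10, 95% interval -0.39 to 0.09, limma adjusted p = 1.00).

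FRE1 was the most variable gene of the set. It read 1333, 3737 and 3757 on rph1 arrays 1, 2 and 3, against 2019, 3678 and 3260 on WT arrays. Both replicate 1 arrays lay far below the others, and the rph1 array was the lower of them. In replicates 2 and 3 the rph1 array was the higher one. The log2 difference was -0.12 with a wide interval (SE 0.45, 95% interval -1.21 to 0.96, limma adjusted p = 1.00), and it was -0.60, 0.02 and 0.20 in replicates 1, 2 and 3. In replicates 2 and 3 alone it was 0.11 (limma adjusted p = 0.723), so FRE1 has no settled direction here.

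The batch itself passed the test for FRE1. With both genotypes in the fit, the replicate 1 arrays differed from replicates 2 and 3 by -1.13 on the log2 scale (SE 0.16, limma adjusted p = 0.00599). FTR1 was the other member that passed, at -0.26 (SE 0.07, limma adjusted p = 0.0319). These 2 of 9 tested members stand beside 18.5% of all tested genes called lower in replicate 1.

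The batch also touched the genes of copper supply and related reductases, a list of 8 that holds other targets of Mac1. In the same fit 3 of the 8 were called lower in replicate 1, against 18.5% of tested genes, and 1 was called higher, against 18.4%. Those lower were FRE7, a copper-regulated reductase gene, by -2.15 on the log2 scale, CTR1, the copper transporter gene of the cell surface, by -0.88, and the copper pump gene CCC2 by -0.40. The 1 called higher was MAC1, encoding the activator, at 0.38. The other 4, ATX1 (-0.35), FRE8 (-0.08), CTR3 (-0.07) and CTR2 (0.19), did not pass. FRE7 and CTR1 were picked out after their values were seen, so their genotype differences are a description with no test. By replicate number these were -0.86, 0.38 and 0.56 for FRE7 and -0.43, 0.02 and 0.24 for CTR1. As in FRE1, the rph1 array was the lower one in replicate 1 and the higher one in replicates 2 and 3. This order of signs was found in 3 of the 8 genes (CTR3 is the other) and in 2 of 9 tested members (FRE1 and FET5), against 8.33% of tested genes.

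**Figure D2:**
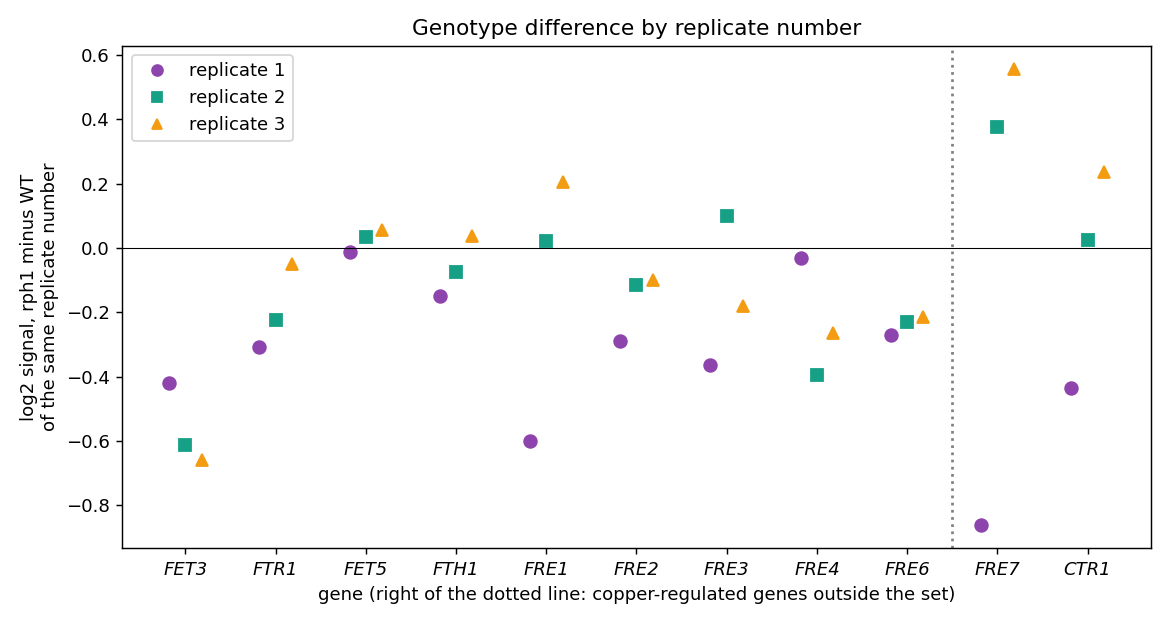
Log2 signal of the rph1 array minus that of the WT array with the same replicate number, for the 9 tested members and, right of the dotted line, FRE7 and CTR1. FET3, FTR1, FRE2, FRE4 and FRE6 lie below 0 in all 3 replicate numbers. FRE1, FRE7 and CTR1, and FET5 by small amounts, lie below 0 in replicate 1 and above it in replicates 2 and 3.

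FRE5 was not measurable. This reductase homologue read 5.56, 4.02 and 0.847 on rph1 arrays and 1.35, 5.57 and 1.12 on WT arrays. All 6 values lay below the background of their array, which was 8.59 to 12.7, so no fold is given and the gene was not tested. By the RefSeq gene table FRE3 (YOR381W), FIT2 (YOR382W), FIT3 (YOR383C) and FRE5 (YOR384W) lie in a cluster. The log2 differences of the other 3 genes named were -0.15 for FRE3, -0.22 (SE 0.15) for FIT2 and -0.19 (SE 0.29) for FIT3. YOR381W-A, which follows FRE3 in that table, had the opposite sign, at 0.57 (SE 0.58). FIT2 and FIT3 encode cell wall mannoproteins that help retain siderophore iron.

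As a group, 0 of the 9 tested members passed, against 2 genes of 5402 called (0.0370%). Both were lower, and the deleted RPH1 itself was among them (limma adjusted p = 0.00196). At an unadjusted p under 0.05 there were 3 members, FET3, FRE6 and FRE4, all lower, where 1.00% of tested genes were lower and 4.33% higher at that level. The rph1 arrays lay wholly below the WT arrays in 4 of 9 members, FET3, FRE2, FRE4 and FRE6, against 3.04% of tested genes. They lay wholly above in 0 members, against 7.55%. The rph1 array was lower in each of the 3 replicate numbers in 5 of 9 members (those 4 and FTR1), against 14.7%. The log2 difference was below 0 in 8 of 9 members, the exception being FET5, against 49.6% of tested genes. The members' median was -0.17, against 0.0012 over all tested genes. The ferric reductase members alone had a median of -0.17 (5 genes), and the oxidase and permease members -0.13 (4 genes). By replicate number the members' median was -0.29, -0.11 and -0.10, and within replicates 2 and 3 it was -0.11. Because the members were chosen with earlier results of these data known, these shares describe the set and are not a test.

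The genes next to the members on the chromosomes had differences of either sign. Of 17 tested neighbours on none of the iron or copper lists, 7 were lower in rph1, against 49.6% of tested genes. Their median log2 difference was 0.06, and none passed (limma, 0 genes), against 0.0370% of tested genes. The 2 at an unadjusted p under 0.05 were both lower, where 1.00% of tested genes were lower and 4.33% higher at that level. They were MNT4, a mannosyltransferase gene next to FRE4, at -0.36 (SE 0.15), and YOR385W, next to FRE5, at -0.24 (SE 0.09). FET3 lies between AAC1, at 0.08 (SE 0.07), and SEN15, at 0.06 (SE 0.11), in the RefSeq table's order of genes.

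Other targets of Aft1 were read for comparison. This list was also chosen with earlier results of these data known, so its shares are a description too. CCC2, also a target of Aft1, is counted with the copper genes instead and differed by 0.10 (SE 0.17). Of 18 others tested, 0 passed in either direction, against 0.0370% of tested genes. In 14 the log2 difference was below 0, against 49.6% of tested genes, and the median was -0.13. The rph1 array was lower in every replicate number in 8 of 18, against 14.7% of tested genes. In 3 of 18 the rph1 arrays lay wholly below the WT arrays (ENB1, ARN2 and HMX1), against 3.04% of tested genes. These were also the 3 lower at an unadjusted p under 0.05, against 1.00%. ENB1, a transporter of the siderophore enterobactin, read 263, 290 and 263 on rph1 arrays, against 415, 372 and 373 on WT arrays. Its rph1 arrays were all well under its WT arrays, with -0.51 on the log2 scale (SE 0.08, limma adjusted p = 0.268). SIT1, a ferrioxamine transporter gene named for the size of its difference, read 145, 210 and 200 on rph1 arrays, against 189, 334 and 370 on WT arrays. Its groups overlapped, but the rph1 array was lower in each replicate number, by -0.38, -0.67 and -0.89 on the log2 scale. The overall difference of SIT1 was -0.65 (SE 0.28, limma adjusted p = 0.933), with a limma adjusted p of 0.0600 in the batch fit and 0.124 in the block fit. ARN1, another siderophore transporter gene, named for the same order, differed by -0.32, -0.21 and -0.42 in replicates 1, 2 and 3. ARN2, a transporter of another siderophore, differed by -0.30 (SE 0.10, limma adjusted p = 0.639), and HMX1, the haem oxygenase gene, by -0.29 (SE 0.10, limma adjusted p = 0.743). BNA2, an enzyme gene of NAD synthesis from tryptophan, had a positive difference of 0.41 (SE 0.17, limma adjusted p = 0.932). The batch fit called 1 of the 18, and it was higher in rph1. This was ECM4, a glutathione transferase gene named for making up that count, at 0.46 (limma adjusted p = 0.0400). The batch fit called 0.537% of tested genes higher, and ECM4 was called neither in the block fit (limma adjusted p = 0.104) nor without these terms (limma adjusted p = 1.00).

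**Figure D3:**
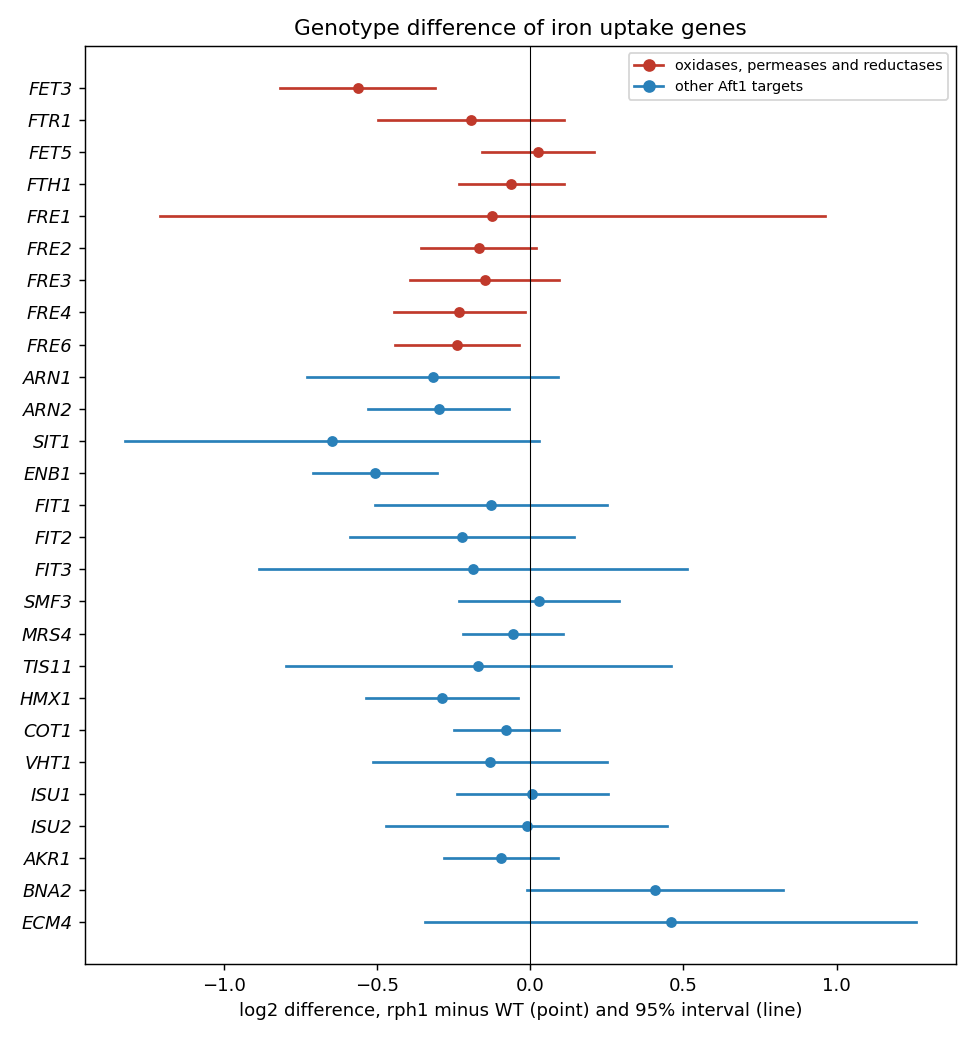
Log2 difference, rph1 minus WT, with its 95% interval from limma for the 9 tested members (red) and 18 other Aft1 targets (blue). FET3 at -0.56 and ENB1 at -0.51 have intervals well below 0. Among the members the intervals of FET3, FRE4 and FRE6 lie below 0, those of the other 6 span 0, and that of FRE1 is the widest.

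Genes of copper supply and related reductases had differences of either sign. Of these 8 genes 0 passed, against 0.0370% of tested genes. In rph1 3 were lower, against 49.6% of tested genes, and 5 were higher, and the median was 0.05. FRE8, a reductase homologue, was the 1 gene of the 8 whose rph1 arrays lay wholly above its WT arrays, against 7.55% of tested genes. Its log2 difference was 0.38 (SE 0.09, limma adjusted p = 0.434). The copper pump gene CCC2, itself a target of Aft1, differed by 0.10 (SE 0.17), the copper chaperone gene ATX1 by 0.14 (SE 0.26), and the vacuolar copper transporter gene CTR2 by 0.09 (SE 0.12). The limma adjusted p was 1.00 for all 3. Among 8 genes for iron regulators and vacuolar iron import 0 passed, against 0.0370% of tested genes, and the median was 0.03. Those with the smallest p were YAP5, the high-iron activator gene, at 0.13 (SE 0.12), BOL2, which acts with glutaredoxins to restrain Aft1, at -0.09 (SE 0.12), AFT2, the paralog of AFT1, at 0.14 (SE 0.21), and GRX3, a glutaredoxin gene of that inhibitory complex, at 0.04 (SE 0.07). AFT1, given here because it is the main activator, differed by -0.07 (SE 0.17). Its interval, -0.47 to 0.33, spans 0.

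Of 3 transporters that take up metals without a reductase and oxidase complex, 0 passed, against 0.0370% of tested genes. FET4, the low-affinity iron transporter gene, read 1506, 1560 and 1520 on rph1 arrays and 1274, 1439 and 1389 on WT arrays. All its rph1 arrays lay above all its WT arrays, as they did in 7.55% of tested genes. The log2 difference of FET4 was 0.16 (SE 0.08, limma adjusted p = 1.00), opposite in sign to that of FET3. The manganese transporter genes SMF1 and SMF2 differed by -0.07 (SE 0.11) and -0.05 (SE 0.08).

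The labels name no mating type, so its marker genes were read as a check of the strains. The alpha-cell gene STE3 had mean signals of 1970 in rph1 and 2025 in WT, and MF(ALPHA)1 had 5802 and 5763. On the log2 scale STE3 and MF(ALPHA)1 differed by -0.04 (SE 0.10) and 0.01 (SE 0.08). The a-cell genes had far lower means, at 53.4 in rph1 and 64.9 in WT for STE2 and 74.9 and 81.4 for BAR1. In both genotypes the alpha-cell genes were thus the high ones. STE2 and BAR1 differed by -0.28 (SE 0.08) and -0.12 (SE 0.08). In both the rph1 arrays lay wholly below the WT arrays, against 3.04% of tested genes. None of these 4 genes passed, and the part of the a-cell genes in the iron gene differences was not tested.

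The genes closest to FET3 in profile were found by the root mean square distance between log2 signals over the 6 arrays, each gene centred on its own mean. Out of 5401 genes the nearest was HOP1, a meiotic chromosome gene, at a distance of 0.10. It was followed by GPI10, a gene of GPI anchor synthesis, at 0.12, and the mitochondrial chaperone gene ECM10 and HMX1, both at 0.14. The fifth was AQY1, a water channel gene, at 0.15. Mean signals were low for HOP1, at 48.8 in rph1 and 66.2 in WT, and for AQY1, at 31.2 and 42.6. FET3 had means of 849 and 1259. GPI10 read 569, 641 and 624 on rph1 arrays, against 719, 797 and 823 on WT arrays, which is -0.35 on the log2 scale (SE 0.09, limma adjusted p = 0.441). The choice by likeness to FET3 over these same arrays favours genes lower in rph1, so such differences are a description only. HMX1 was the 1 gene among these 5 on the iron lists. Among the other members FRE6 was the nearest to FET3 (rank 19, distance 0.18), then FRE4 (rank 40, 0.20) and FTR1 (rank 85, 0.22). FRE1 was the farthest (rank 5163, 0.55).

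**Figure D4:**
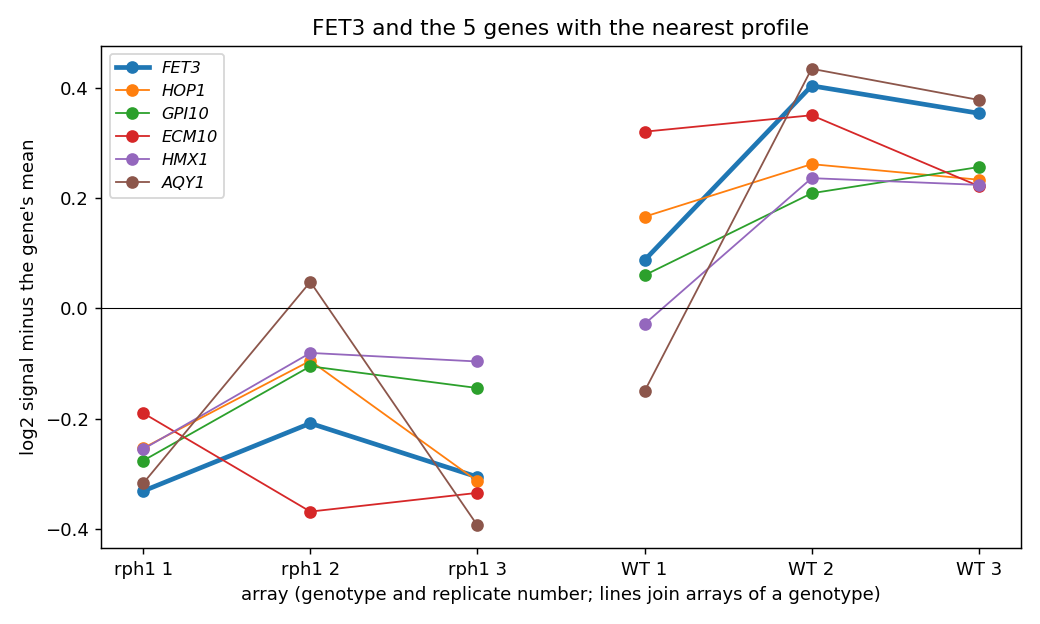
Log2 signal of FET3 (thick line) and the 5 genes with the nearest profile on each array, minus the gene's mean over the 6 arrays, with rph1 arrays left of WT arrays. All 6 genes are lower on average on the rph1 arrays, which the choice of genes by likeness to FET3 favours. AQY1 on WT array 1 overlaps its rph1 arrays.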

How the data were processed

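The deposited table holds a linear signal intensity for each probe set. Per the submitters' processing notes the authors used MAS5 (the sources used here give neither its version nor its target). Every array had a 2% trimmed mean of 500.2, so values were used as deposited, as log2. Per the labels' protocols, cRNA came from 10 µg of total RNA. Probe sets were named through the platform annotation and gene identifiers of the RefSeq table (R64), and 5498 matched 1 S. cerevisiae gene. The files name no build, so no coordinates are given.

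The test was limma's moderated fit (lmFit, eBayes; limma 3.58.1, R 4.3.3; genotype only, 2-sided, Benjamini-Hochberg over 5402 genes), checked on simulated data. SE and intervals come from it. For ratios, SE is from the group variances. With 3 arrays a group, the number of arrays limits the precision. The p-values set each difference against the spread between these samples. In the genotype-only fit that spread includes the batch of replicate 1. Deviations from group means correlated at 0.768, 0.454 and 0.415 between same-numbered arrays of replicates 1, 2 and 3. Across numbers the values were 0.535 (rph1 array 2 with WT array 3) and 0.471 (rph1 array 3 with WT array 2). These values set replicate 1 apart but show no pairing by number within replicates 2 and 3. Differences by number there, and the block fit, rest on the numbering in the labels. Members and lists were chosen with earlier results of these data known. The genes named are RPH1, the members, up to 4 genes with the smallest p of each list and the 5 genes nearest to FET3. Others are named for their place beside a member, their role or, where stated, their values. Figures used matplotlib 3.10.9.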

Additional observations from a re-analysis of the deposited data

How the results depend on the processing

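Limits are the 3 arrays a group, the batch of replicate 1, and low signal for FRE5. The count of genes called, 2 over all arrays, was 6 with the replicate block, 34 with the batch term and 202 with array weights, whose estimate did not reach its tolerance. It was 1 after quantile normalization, with an offset of 32 or with an intensity trend, 0 with the filter at a mean log2 signal above 6, which leaves out RPH1, and 1 to 2 when single arrays were left out. Members called, 0 over all arrays, were 1 with the batch term (FET3) and 2 with array weights, FET3 (-0.63, limma adjusted p = 0.0114) and FRE4 (-0.35, limma adjusted p = 0.0188). Other Aft1 targets called were 1 with the batch term and 5 with array weights. With single arrays left out, members and other Aft1 targets called were 0 each time. Members at an unadjusted limma p under 0.05, 3 over all arrays, were 5 with the batch term and 2 with an intensity trend. With 1 array left out they were 1 to 3. FET3 stayed below 0 in all 16 alternatives, from -0.66 to -0.50, with limma adjusted p from 0.0114 to 0.928. FRE1 turned positive in replicates 2 and 3 alone (0.11) and with array weights (0.033), and lay between -0.38 and 0.37 with 1 array left out. FRE3 turned to 0.023 with array weights. FET5 turned to -0.0084 after quantile normalization and -0.0074 after median centring, and lay between -0.014 and 0.066 with 1 array left out. The cause of these turns was not tested. Leaving out 1 array put the members' median between -0.25 and -0.11. The FET3 to FTR1 contrast ranged from -0.46 to -0.27, FET3 to FET5 from -0.73 to -0.51, and FET5 to FTH1 from 0.04 to 0.14. The replicate block changed no call among the members.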
